A study of Drosophila melanogaster with 28 samples.

Results

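Glutathione transferases are a family of enzymes, and their messenger RNAs were followed here through 28 libraries of whole Drosophila melanogaster embryos. The family was taken as every gene whose symbol is Gst followed by a class letter (D, E, T, S, O or Z) and a number, which gave 35 of the 17936 genes in the count tables. Class D (delta) held 11 genes, class E (epsilon) 14, class T (theta) 4, class O (omega) 3, class Z (zeta) 2 and class S (sigma) 1. The rule used the symbols and no measured value.

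Glutathione transferases join the tripeptide glutathione to reactive, electron-poor molecules, which makes these molecules soluble and ready for export. In insects the delta and epsilon classes are expanded and are best known for the breakdown of insecticides and plant toxins and for removing products of lipid peroxidation. Other classes have further roles: the zeta enzymes act in the breakdown of tyrosine, omega enzymes move glutathione on and off thiols, and the epsilon member GstE14 (noppera-bo) is needed for making the moulting hormone ecdysone.

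The study compared embryos mutant for chromatin regulators and for a Hox gene with control embryos of the stock w1118. Embryos aged 14 to 16 h gave 12 libraries, 4 of each of the groups nej3, nejEP1179 and w1118. Both nej3 and nejEP1179 are alleles of nejire, the gene for the fly acetyltransferase CBP, and nejEP1179 is an insertion of a P element that carries a white marker gene. Embryos aged 16 to 18 h gave 16 libraries, 3 of the controls w1118, 3 each labelled ez731, psch27 and SppsG8810, and 2 each labelled Dfd1 and psce22. Dfd is the Hox gene Deformed, E(z) and Psc encode core proteins of Polycomb repressive complexes, and Spps encodes a zinc finger protein that binds DNA and works with them. SppsG8810 is also a P element insertion with a white marker, the ez731 stock carries in addition the recombination site FRT 2A, and the Dfd1 stock the allele p[p]. Mutant embryos came from heterozygous parents with GFP-marked balancer chromosomes. They were laid within 2 h, aged at 25 degrees, and chosen by their morphology and by lacking GFP, and 20 to 30 embryos were pooled per library. Each mutant came from its own stock, so the mutation and the rest of the stock's genome cannot be told apart. The paper calls the replicates of a genotype biological, but the labels do not say whether libraries of a group came from separate collections. Each p-value below therefore covers the spread among these pools alone, which may in part be technical.

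The total count was 13129082 to 21509453 per library at 14 to 16 h and 17940038 to 22354257 at 16 to 18 h. The neuronal markers elav and nSyb and the glial marker repo were present in every library. So were the muscle genes Mhc and Mlc2 and the blood and fat body gene srp. The tracheal gene btl, read here only at 16 to 18 h, was present in each library of that age. Lsp1gamma, a storage protein gene of the fat body, differed between the groups. It was at 1.52 to 2.30 CPM (counts per 1000000 of the library's total) in w1118 at 14 to 16 h, 6.70 to 8.41 in nej3 and 7.01 to 8.03 in nejEP1179, and at 16 to 18 h it was at 3.84 to 4.12 in w1118, 0.107 to 0.183 in Dfd1, 0.192 to 1.26 in ez731, 66.1 to 90.5 in psce22, 2.88 to 96.4 in psch27 and 3.69 to 6.08 in SppsG8810. The glial gene repo was at 40.0 ± 0.675 CPM (mean ± SD of the libraries) in w1118 at 14 to 16 h, 26.1 ± 1.48 in nej3 and 32.7 ± 1.60 in nejEP1179. At 16 to 18 h repo was at 42.4 ± 3.49 in w1118, 29.3 ± 0.0922 in Dfd1 and 26.1 ± 1.81 in ez731. It was at 48.1 ± 2.67 in psce22, 39.2 ± 3.42 in psch27 and 34.8 ± 2.76 in SppsG8810. Mean btl was 18.6 in w1118, 14.1 in Dfd1, 15.2 in ez731 and 19.2 to 19.6 under the other labels. Mean srp was 92.1, 66.4, 72.9 and 85.6 to 107 in the same order. The part of tissue make-up or developmental stage in the changes below was not tested. nej itself was at 241 ± 10.2 CPM in nej3, 409 ± 72.5 in nejEP1179 and 254 ± 11.7 in w1118, and Dfd was at 8.61 ± 1.88 in Dfd1 and 18.6 ± 0.454 in w1118. The labels of 4 groups at 16 to 18 h are in doubt. The mean normalized counts that the authors deposited for ez731 were given, to within rounding, by the columns labelled psce22 and psch27 replicate 1 with those of w1118, those for psce22 by psch27 replicates 2 and 3, those for psch27 by SppsG8810, and those for SppsG8810 by ez731. The library labelled psch27 replicate 1 also stood apart from replicates 2 and 3, where a chi-square test of its counts gave 139 and 118 for each degree of freedom and the other pairs of replicates gave 2.94 to 36.8. Psc was at 325 ± 12.4 CPM in the libraries labelled SppsG8810 and 27.8 ± 3.74 in w1118. It was at 18.2 to 124 in those labelled psch27 and 19.9 to 22.3 in psce22. E(z) was at 14.5 to 15.9 CPM in psce22, 15.7 to 25.9 in psch27, 19.4 to 21.9 in ez731 and 23.1 to 25.2 in w1118. Groups are therefore called "the libraries labelled ez731" and so on, and no direction is tied to a mutation.

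On the dm6 build the 11 class D genes lay in a row on chromosome arm 3R between bases 12364776 and 12385624, with GstD10, GstD9 and GstD1 on the minus strand and GstD2 to GstD8 and GstD11 on the plus strand. The genes GstE10 and GstE1 to GstE9 formed a second row on arm 2R between bases 18396638 and 18409835, and GstE11, GstE12, GstE13 and GstE14 lay elsewhere on the same arm. GstT1 and GstT2 were neighbours on 2R, GstT3 and GstT4 lay apart on the X chromosome, GstO1 to GstO3 were neighbours on 3L, GstZ1 and GstZ2 were neighbours on 3R, and GstS1 was alone on 2R. Members of a row have similar sequences, and how reads that fit several of them were counted is not stated, so the split of reads between neighbours is uncertain. Exons of GstT2 overlapped those of CG12926 on the opposite strand over 223 bases, 25.1% of its length, and those of GstE1 and GstE10 shared 20 bases. Whether counting used the strand is not stated either.

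In w1118 embryos the family was led by a few genes. Per kilobase of exon, GstT4 stood at 144 ± 4.80 CPM (SD, n = 4) at 14 to 16 h, GstE6 at 144 ± 5.65 and GstD1, the delta enzyme known for breaking down DDT, at 142 ± 4.65, and their libraries overlapped. GstE12 followed at 106 ± 2.12 and GstS1, the sigma enzyme of muscle that acts on the lipid peroxidation product 4-hydroxynonenal, at 63.0 ± 1.05, each clear of its neighbours in the order. At 16 to 18 h GstD1 led with 212 ± 6.98 per kilobase (SD, n = 3) and overlapped with GstT4 at 199 ± 10.8, and GstE12 (152 ± 5.58), GstE6 (128 ± 4.50) and GstS1 (104 ± 1.59) followed without overlap. The other 30 genes were each below 60 per kilobase at both ages. GstD4, GstD6, GstD7, GstE14 and GstO1 were the lowest at both ages, and at 14 to 16 h these 5 were at or below 0.180 per kilobase. GstD7 and GstE14 reached 1.06 and 1.43 at 16 to 18 h, whereas GstD3 was at 9.76 ± 1.498 at the earlier age and 2.61 ± 0.762 at the later. The ages were counted in separate tables and were not tested against each other.

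**Figure D1:**
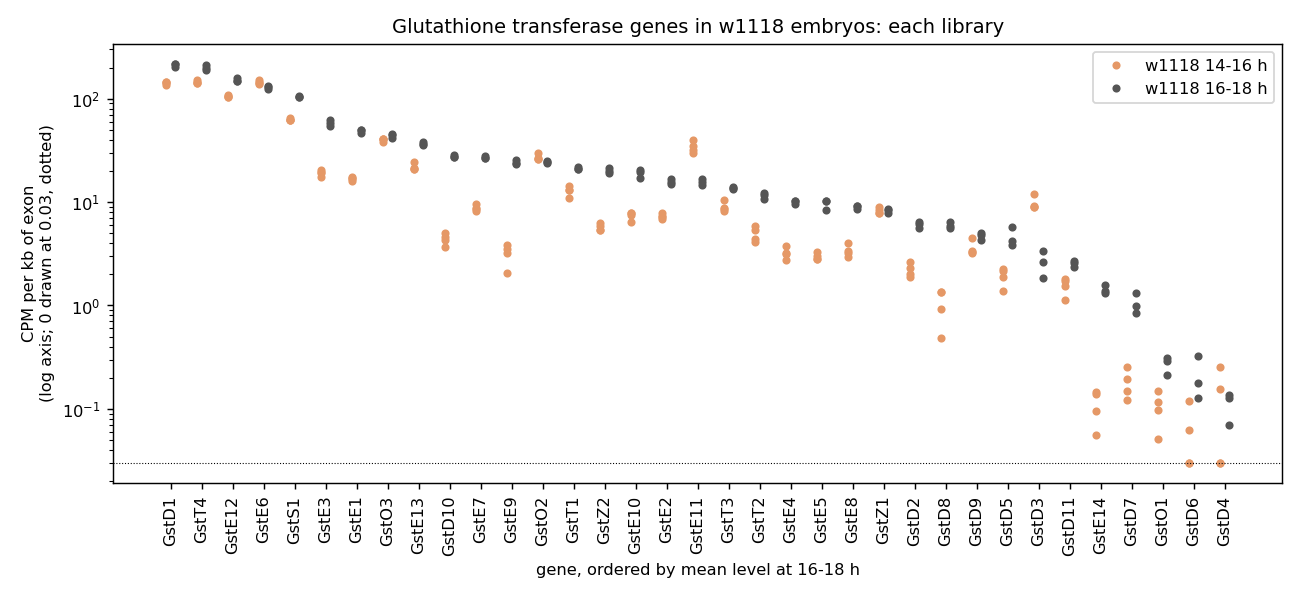
Levels of the 35 glutathione transferase genes in each w1118 library, as CPM per kilobase of exon on a log axis, for 14 to 16 h (orange, 4 libraries) and 16 to 18 h (grey, 3 libraries), ordered by the mean at 16 to 18 h. GstD1, GstT4, GstE12, GstE6 and GstS1 lead at both ages, and GstD4 and GstD6 are close to 0.

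Summed over its 35 genes, the family made up 965 ± 21.6 CPM in w1118 at 14 to 16 h (SD, n = 4), 1156 ± 31.6 in nej3 and 1074 ± 47.4 in nejEP1179. Every nej3 library (1120.4 to 1188) and every nejEP1179 library (1004 to 1105) lay above every w1118 library (943 to 993). The classes did not move together. In nejEP1179 only classes S and T had higher mean sums than w1118, at 249 and 255 CPM against 143 and 205. Classes D, E, O and Z were lower, at 115, 360, 77.4 and 17.9 against 140, 372, 83.1 and 20.8, and only class D did so without overlap. In nej3 class S was at 247, class T at 263 and class E at 405. At 16 to 18 h the sum was 1440 ± 15.9 in w1118 (n = 3), 2187 ± 19.2 in the libraries labelled Dfd1 (n = 2), 1911 ± 124 in ez731 (n = 3), 1909.9 ± 70.6 in psce22 (n = 2), 1729.5 ± 102 in SppsG8810 (n = 3) and 1766 ± 194 in psch27 (n = 3). All 13 mutant libraries lay above the highest w1118 library at 1454. In pools of whole embryos, more cells of a type and more RNA per cell cannot be told apart.

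In both nej alleles some members rose and others fell. Of the 30 members that passed the filter on low counts, 14 rose and 4 fell in nej3, where 24.0% of the 10397 genes tested changed (12.3% rose and 11.7% fell). In nejEP1179 7 rose and 6 fell, against 24.9% of all genes (12.6% rose and 12.3% fell), and the split was 6 and 8 when libraries were scaled by their total counts, an alternative chosen after seeing the data. Calls are at an adjusted p under 0.05 (Benjamini-Hochberg, edgeR's quasi-likelihood test over all genes). Levels are CPM of the total count, whereas log2 changes are after TMM scaling of the libraries and are given ± SE. The median log2 change of the members was 0.10 in nej3 and -8.33e-05 in nejEP1179, beside -0.01 and -0.004 over all genes. Class E carried most of the calls in nej3, with 8 up and 3 down of 13 tested, followed by class T with 3 up of 4. Of 8 class D genes tested 1 rose and 1 fell, both class Z genes stayed uncalled, GstS1 rose and GstO3 rose. GstD4, GstD6, GstD7, GstE14 and GstO1 were too low to be tested at this age.

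**Figure D2:**
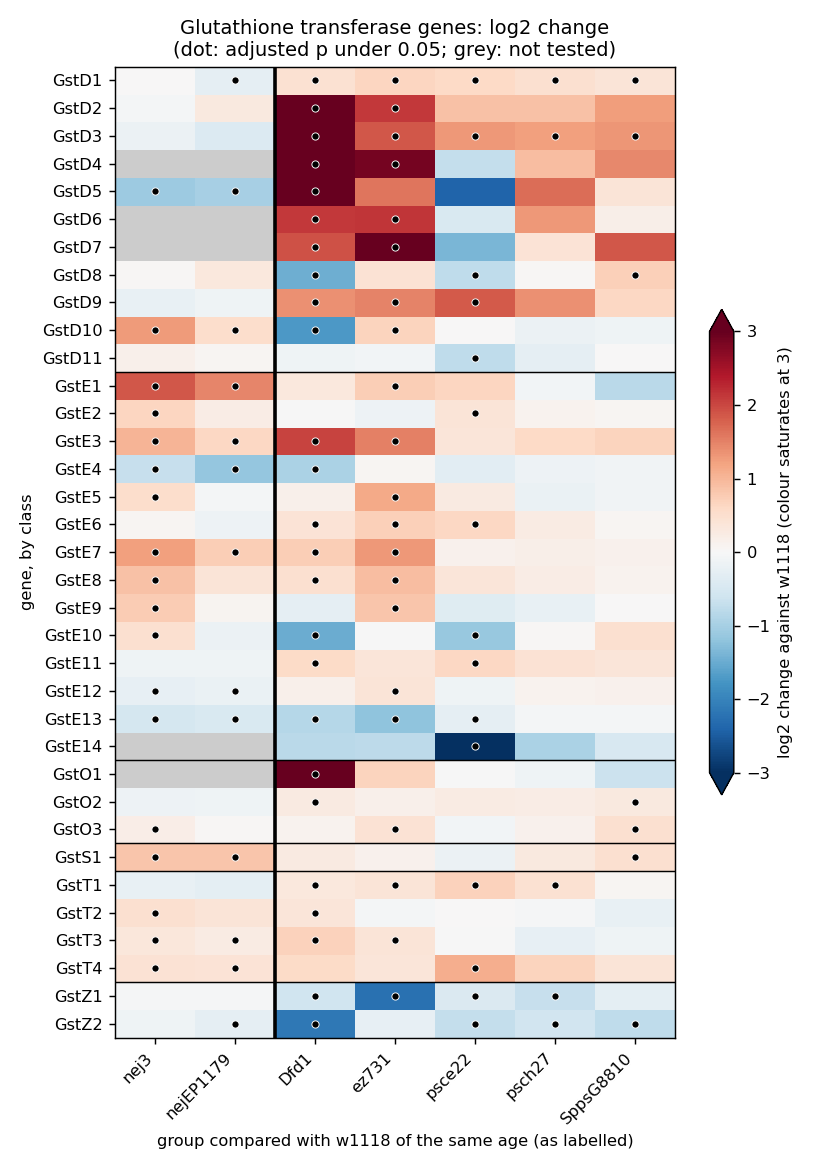
Log2 change of each member (vertical axis, by class) against w1118 of the same age in the 7 mutant labels (horizontal axis), red for higher and blue for lower, with a dot where the adjusted p was under 0.05 and grey where the gene was not tested. The leftmost columns are the nej alleles at 14 to 16 h, where GstE1 has the deepest red with 1.86 in nej3, and the others are the labels at 16 to 18 h, where class D is mostly red in Dfd1 and ez731 and class Z is blue.

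The 7 members GstD10, GstE1, GstE3, GstE7, GstS1, GstT3 and GstT4 rose in both nej3 and nejEP1179, as did 7.3% of all genes tested. The contrasts share their 4 control libraries. GstE1, an epsilon enzyme that conjugates 4-hydroxynonenal, changed most. Its level was 14.0, 14.2, 14.5 and 13.3 CPM in the w1118 libraries, 43.9, 53.4, 53.5 and 46.7 in nej3 and 38.4, 39.7, 39.4 and 32.5 in nejEP1179. All nej libraries lay above all controls, and all nej3 libraries above all nejEP1179 libraries. The log2 change was 1.86 ± 0.08 (adjusted p = 8.6e-11) in nej3 and 1.47 ± 0.08 (adjusted p = 1.6e-09) in nejEP1179. GstE7, a few genes further along the same row, was at 7.37, 6.27, 6.60 and 6.77 CPM in w1118, 18.5, 15.1, 13.5 and 15.03 in nej3 and 10.5, 11.04, 12.2 and 9.90 in nejEP1179. These groups did not overlap either, and the log2 changes were 1.23 ± 0.10 (adjusted p = 2.5e-07) and 0.74 ± 0.10 (adjusted p = 7.4e-05). GstE3 was at 13.3, 14.6, 15.3 and 14.4 CPM in w1118, 32.1, 23.8, 30.6 and 27.1 in nej3 and 21.9, 22.7, 21.6 and 19.1 in nejEP1179. Its log2 changes were 1.01 ± 0.08 (adjusted p = 2.8e-07) and 0.61 ± 0.08 (adjusted p = 7.2e-05), with the groups in the same order and clear of each other.

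GstS1 rose in both alleles. It was at 147, 142, 143 and 142 CPM in the w1118 libraries, 238, 257, 243 and 252 in nej3 and 238, 243, 262 and 254 in nejEP1179, so that the alleles overlapped with each other and not with w1118. The log2 change was 0.82 ± 0.05 (adjusted p = 5.6e-09) in nej3 and 0.84 ± 0.05 (adjusted p = 3.6e-09) in nejEP1179, and the difference between the alleles was -0.02 ± 0.05 (adjusted p = 0.89). The theta genes on the X chromosome moved less. GstT4 was at 172, 172, 176 and 184 CPM in w1118, 213, 233, 238 and 241 in nej3 and 240.3, 237, 230.2 and 194 in nejEP1179, with log2 changes of 0.43 ± 0.06 (adjusted p = 5.7e-05) and 0.40 ± 0.06 (adjusted p = 0.00012) and no overlap with w1118. GstT3 was at 14.4, 11.1, 11.7 and 12.03 CPM in w1118, 15.02, 15.2, 16.3 and 14.2 in nej3 and 14.6, 15.6, 13.8 and 12.7 in nejEP1179, and here 1 control library lay among the mutants. Its log2 change of 0.35 ± 0.09 (adjusted p = 0.0083) in nej3 passed the test, and that of 0.25 ± 0.09 (adjusted p = 0.044) in nejEP1179 lost its call in 5 of 6 alternatives other than leaving out a library (adjusted p 0.053 to 0.097). Over all genes of the X chromosome the median log2 change was -0.005 in nej3 and 0.017 in nejEP1179. The RNA roX1, made in male embryos, was at 632 ± 26.2, 639 ± 62.6 and 564 ± 98.6 CPM in nej3, nejEP1179 and w1118. Sxl was at 396 ± 37.8, 338 ± 6.63 and 440 ± 20.6 CPM in the same order. The part of the mix of sexes in the changes at this age was not tested.

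GstD10 at the end of the delta row was at 3.79, 4.35, 3.998 and 3.25 CPM in w1118, 6.57, 10.6, 8.67 and 10.2 in nej3 and 4.24, 5.62, 6.49 and 5.03 in nejEP1179. The nej3 libraries stood clear of w1118 and 1 nejEP1179 library did not. The log2 changes were 1.27 ± 0.16 (adjusted p = 4e-05) and 0.52 ± 0.17 (adjusted p = 0.037), and the nejEP1179 call was lost in 6 of the 8 fits that left out a library (adjusted p 0.052 to 0.12).

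The 4 members GstD5, GstE4, GstE12 and GstE13 fell in both alleles, as did 7.02% of all genes. GstE12, among the most abundant members, was at 149, 146, 145 and 151 CPM in w1118, 117, 118, 121 and 128 in nej3 and 129.9, 128, 126 and 119 in nejEP1179. The change was small and the alleles overlapped with each other but not with w1118, with a log2 change of -0.25 ± 0.04 (adjusted p = 0.00026) and -0.19 ± 0.04 (adjusted p = 0.0024). GstE13 was at 22.1, 22.2, 22.7 and 25.8 CPM in w1118, 15.9, 18.0, 16.3 and 12.5 in nej3 and 16.5, 17.2, 16.5 and 14.8 in nejEP1179, with log2 changes of -0.53 ± 0.09 (adjusted p = 0.00076) and -0.47 ± 0.09 (adjusted p = 0.002) and again no overlap with w1118. GstD5 and GstE4 were low throughout. GstD5 was at 1.82, 1.58, 1.16 and 1.90 CPM in w1118, 0.814, 0.647, 0.802 and 0.686 in nej3 and 0.669, 1.09, 0.824 and 0.457 in nejEP1179, with log2 changes of -1.09 ± 0.25 (adjusted p = 0.0047) and -0.99 ± 0.25 (adjusted p = 0.0085). GstE4 was at 2.31, 2.68, 2.65 and 3.13 CPM in w1118, 1.63, 2.09, 1.15 and 1.60 in nej3 and 1.23, 0.944, 1.75 and 0.686 in nejEP1179, and its log2 changes were -0.69 ± 0.23 (adjusted p = 0.039) and -1.15 ± 0.24 (adjusted p = 0.0026). No mutant library of either gene reached the lowest control, and the nej3 call of GstE4 was lost in 6 of the 8 fits that left out a library (adjusted p 0.072 to 0.11).

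**Figure D3:**
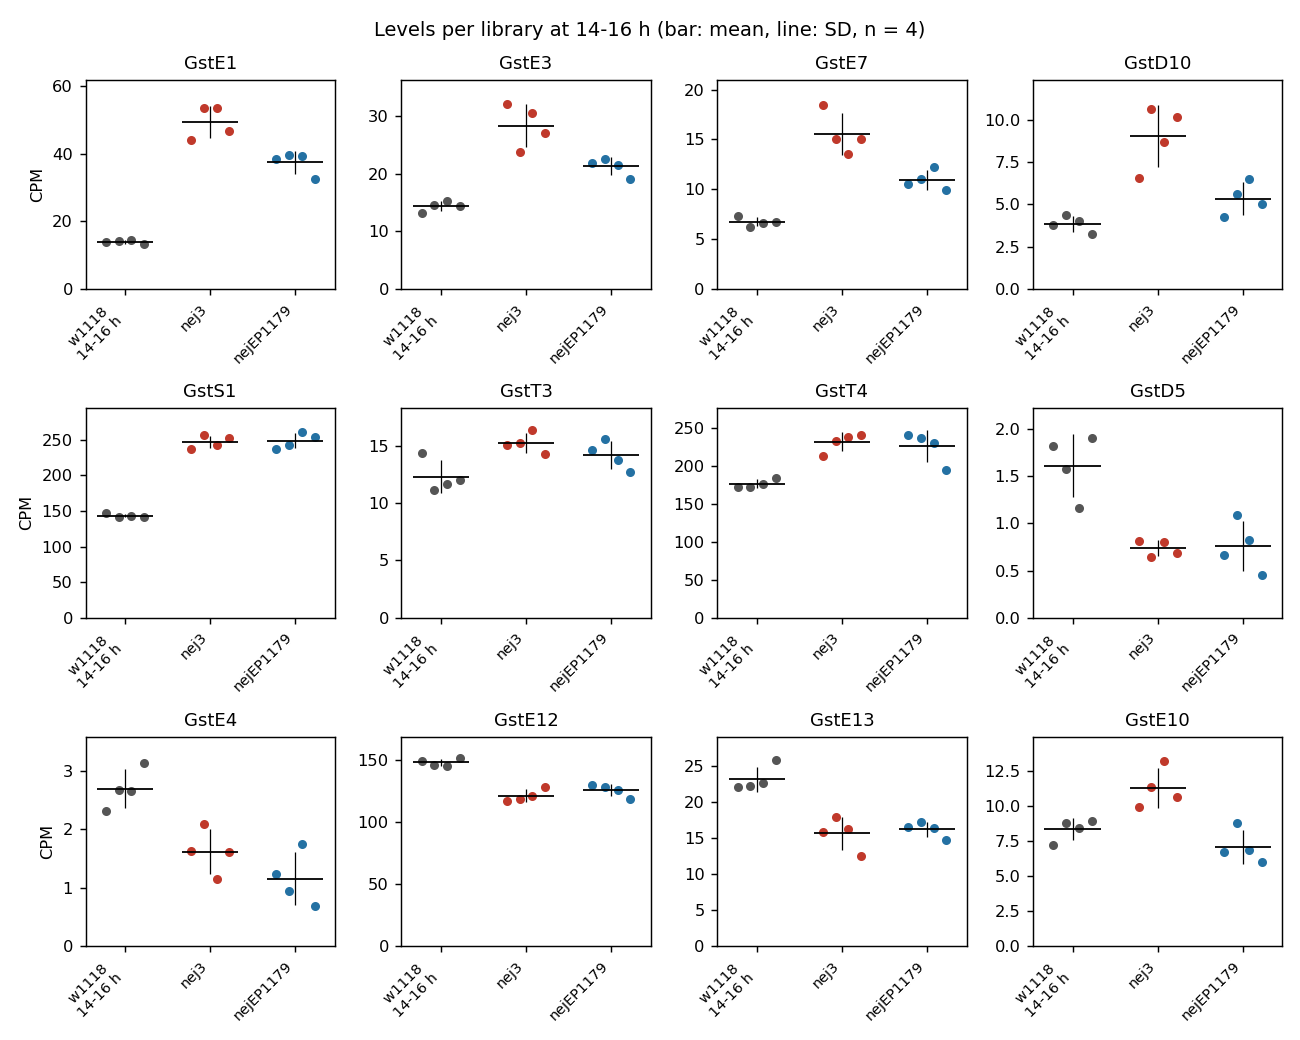
CPM of 12 members in each library at 14 to 16 h, with dots for w1118 (grey), nej3 (red) and nejEP1179 (blue), a bar for the mean and a line for the SD of 4 libraries. GstE1 rises from about 14.0 in w1118 to 49.4 in nej3 and 37.5 in nejEP1179, GstS1 is at 247 and 249 in the alleles, and GstE12 and GstE13 are lower in both.

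The alleles were also tested against each other. Between them 9 members differed, all higher in nej3, beside 9.30% of all genes (5.0% higher in nej3 and 4.30% lower). Class E held 7 of the 9. GstE10, at the start of the epsilon row, was at 7.23, 8.80, 8.46 and 8.96 CPM in w1118, 9.95, 11.3, 13.2 and 10.6 in nej3 and 6.69, 8.82, 6.85 and 6.02 in nejEP1179. It was higher in every nej3 library than in any of the other libraries, with a log2 change of 0.47 ± 0.12 (adjusted p = 0.0089) against w1118 and 0.66 ± 0.12 (adjusted p = 0.0029) against nejEP1179. GstD1 was at 123, 115, 119 and 123 CPM in w1118, 116, 114, 118 and 123 in nej3 and 95.6, 98.5, 98.8 and 92.8 in nejEP1179. It overlapped with the controls in nej3 and lay below them in nejEP1179, with log2 changes of 0.01 ± 0.04 (adjusted p = 0.92) and -0.27 ± 0.04 (adjusted p = 0.00012). GstE2, GstE5, GstE8, GstE9, GstE10, GstO3 and GstT2 rose in nej3 by 0.20 (GstO3) to 0.88 (GstE8) on the log2 scale without a call in nejEP1179, and of these GstE5, GstE9 and GstE10 differed between the alleles while GstE2, GstE8, GstO3 and GstT2 did not pass that test. The GstE9 difference was lost in 7 of the 8 fits that left out a library (adjusted p 0.052 to 0.11), and the GstE6 difference in 5 of 8 (adjusted p 0.054 to 0.10). In nej3 GstO3 lost its call with total counts (adjusted p = 0.076) and in 4 of 8 fits without a library (adjusted p 0.053 to 0.078), and GstT2 in 4 of 8 (adjusted p 0.055 to 0.083). GstZ2 fell by 0.26 ± 0.09 in nejEP1179 (adjusted p = 0.038), a call lost with DESeq2 (adjusted p = 0.065) and in 5 of 8 fits without a library (adjusted p 0.054 to 0.11).

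A list of 12 heat shock genes was highest in nej3. Its summed level was 1836 to 3059 CPM in nej3 and 591 to 611 in w1118. In nejEP1179 it was 648, 1256, 704 and 641 in replicates 1 to 4, with no overlap with nej3. Its part in the difference between the alleles was not tested.

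At 16 to 18 h all 35 members were tested, among 11366 genes. In the libraries labelled Dfd1 18 members rose and 7 fell, where 52.5% of all genes changed (25.5% rose and 27.0% fell). In those labelled ez731 19 rose and 2 fell, against 28.9% of all genes (13.2% rose and 15.8% fell). In psce22 8 rose and 7 fell (39.6% of all genes, 17.7% up and 21.9% down), in psch27 3 rose and 2 fell (7.49%, 3.48% up and 4.0% down), and in SppsG8810 6 rose and 1 fell (8.86%, 3.43% up and 5.43% down). The median log2 change over the members was 0.44 in ez731, 0.33 in Dfd1, 0.14 in SppsG8810, 0.12 in psch27 and -0.01 in psce22, beside medians of -0.02 to 0.02 over all genes. These 5 comparisons share 3 control libraries. Leaving out 1 library gave 19 to 20 called members in Dfd1 and 18 to 19 in ez731, and moved the counts by over 1.5 times under the other 3 labels. In psce22 9 members passed without replicate 1 and 6 without replicate 2. In psch27 11 passed without replicate 1, 1 without w1118 replicate 1 and 2 without w1118 replicate 2, and in SppsG8810 1 or 2 passed whichever of its own or the w1118 libraries was left out. With only psch27 and w1118 in the fit the 5 psch27 calls were lost (adjusted p 0.062 to 0.14).

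GstD1, GstD3 and GstT1 rose under at least 4 of the 5 labels, as did 1.56% of all genes. GstD1 rose in all 5. It was at 172, 181 and 183 CPM in w1118, 297 and 249.7 in Dfd1, 269, 243 and 291 in ez731, 298 and 262 in psce22, 289.7, 239.8 and 213 in psch27 and 246, 228 and 231 in SppsG8810, and every one of these 13 libraries was above the controls. The log2 changes ran from 0.40 ± 0.10 (adjusted p = 0.026) in SppsG8810 to 0.64 ± 0.10 (adjusted p = 0.00063) in ez731. The SppsG8810 call was lost in each of the 6 fits that left out a library (adjusted p 0.065 to 0.094). GstD3, from the plus strand of the same row, was at 1.94, 1.38 and 2.51 CPM in w1118, 68.4 and 29.3 in Dfd1, 9.20, 4.44 and 6.96 in ez731, 4.66 and 5.25 in psce22, 4.66, 4.90 and 4.08 in psch27 and 5.14, 4.88 and 4.50 in SppsG8810. All mutant libraries lay above the controls, and those labelled Dfd1 lay far above the rest. The log2 change was 4.48 ± 0.35 (adjusted p = 1.8e-06) in Dfd1, 1.87 ± 0.32 (adjusted p = 0.0012) in ez731, 1.32 ± 0.32 (adjusted p = 0.023) in SppsG8810, 1.31 ± 0.35 (adjusted p = 0.013) in psce22 and 1.24 ± 0.32 (adjusted p = 0.037) in psch27. GstT1 was at 20.7, 20.7 and 21.96 CPM in w1118, 31.6 and 27.1 in Dfd1, 27.1, 28.8 and 24.3 in ez731, 37.3 and 32.8 in psce22, 33.7, 26.9 and 25.8 in psch27 and 24.2, 21.96 and 20.2 in SppsG8810. Only the SppsG8810 libraries overlapped with the controls, and the log2 change in the other 4 labels was 0.31 to 0.68, with adjusted p-values of 0.002 to 0.035. Several of these calls were lost when a library was left out. Without the library labelled Dfd1 replicate 1 the Dfd1 changes of GstD1 and GstT1 were 0.34 (adjusted p = 0.066) and 0.21 (adjusted p = 0.26), and GstT1 also lost its Dfd1 call without each of the 3 w1118 libraries (adjusted p 0.057 to 0.081). GstD1 lost its psch27 call without w1118 replicate 1 (adjusted p = 0.058). GstT1 lost its call without ez731 replicate 2 in ez731 (adjusted p = 0.058) and without w1118 replicate 1 or 2 in psch27 (adjusted p = 0.071 each). GstD3 lost its call without psce22 replicate 2 in psce22 (adjusted p = 0.087), in all 6 fits without a library in psch27 (adjusted p 0.051 to 0.14) and in 5 of 6 in SppsG8810 (adjusted p 0.061 to 0.10).

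The delta genes showed the widest changes. In the libraries labelled Dfd1 8 of the 11 rose and 2 fell, and in those labelled ez731 8 rose and none fell. These are 90.9% and 72.7% of the class, beside 52.5% and 28.9% of all genes. GstD2, which breaks down isothiocyanates, was at 4.14, 4.72 and 4.47 CPM in w1118, 40.4 and 59.8 in Dfd1 and 32.0, 11.3 and 13.6 in ez731, and the groups did not overlap. Its log2 changes were 3.33 ± 0.61 (adjusted p = 0.00085) and 2.13 ± 0.57 (adjusted p = 0.016). GstD5 was at 3.54, 3.21 and 4.87 CPM in w1118, 36.9 and 45.8 in Dfd1 and 12.7, 10.3 and 11.1 in ez731. It passed the test in Dfd1 with 3.26 ± 0.78 (adjusted p = 0.0044) and not in ez731 with 1.60 ± 0.72 (adjusted p = 0.12), although the libraries did not overlap. GstD7 was at 0.997, 0.642 and 0.754 CPM in w1118, 2.79 and 3.92 in Dfd1 and 3.57, 3.28 and 11.9 in ez731, with log2 changes of 1.91 ± 0.65 (adjusted p = 0.027) and 3.03 ± 0.61 (adjusted p = 0.0032). GstD4 and GstD6 also passed the test in both labels and rested on few reads, with 1 to 5 reads per w1118 library and 3 to 20 per library labelled Dfd1 or ez731. GstD9 rose by 1.38 to 1.84 in Dfd1, ez731 and psce22, and without the library labelled Dfd1 replicate 2 the Dfd1 change was 0.80 (adjusted p = 0.31). The Dfd1 call of GstD9 was also lost without each of the 3 w1118 libraries (adjusted p 0.067 to 0.086), and its psce22 call without either psce22 library (adjusted p = 0.059 and 0.067). Leaving out a library ended the ez731 call of GstD2 in 3 of 6 fits (adjusted p 0.051 to 0.057, among them the fit without ez731 replicate 1), the Dfd1 call of GstD7 in 4 of 5 (0.053 to 0.12) and the ez731 call of GstD9 in 5 of 6 (0.070 to 0.085).

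GstD10 and GstD8 fell in the libraries labelled Dfd1, where 8 of their neighbours rose. GstD10 was at 23.8, 25.1 and 23.7 CPM in w1118, 7.28 and 9.02 in Dfd1 and 34.4, 34.5 and 41.4 in ez731. Both Dfd1 libraries were below the controls and the 3 ez731 libraries above them, with log2 changes of -1.73 ± 0.19 (adjusted p = 1.8e-05) and 0.66 ± 0.16 (adjusted p = 0.0076). GstD8 fell by 1.47 ± 0.25 in Dfd1 (adjusted p = 0.00039) and by 0.77 ± 0.24 in psce22 (adjusted p = 0.023), where the call was lost in 3 of 5 fits without a library (adjusted p 0.067 to 0.14). It rose by 0.71 ± 0.20 in SppsG8810 (adjusted p = 0.047), a call that was lost in each of the 6 fits without a library (adjusted p 0.073 to 0.17). GstD11 fell by 0.77 in psce22 (adjusted p = 0.024), a call lost in 4 of 5 fits without a library (adjusted p 0.058 to 0.12).

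**Figure D4:**
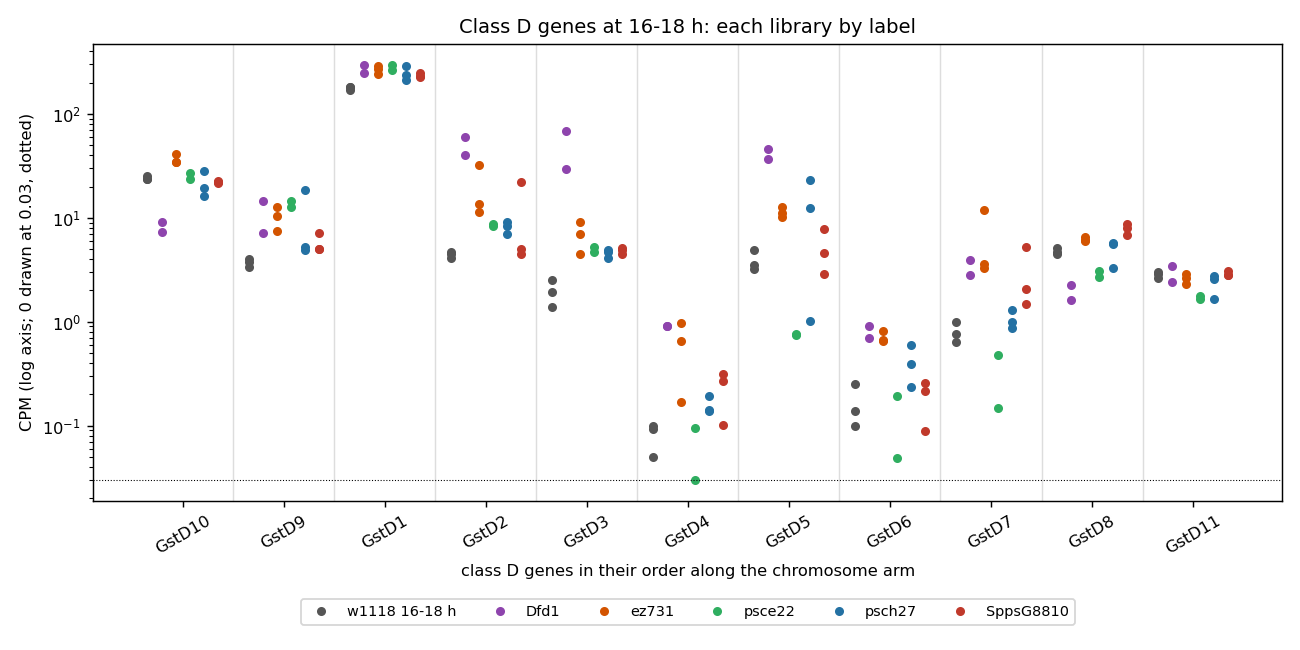
CPM on a log axis of the 11 class D genes in each library at 16 to 18 h, in their order along arm 3R and coloured by label, with 0 drawn on the dotted line. GstD2 to GstD7 are higher in the libraries labelled Dfd1 (purple) and ez731 (orange) than in w1118 (grey), GstD10 is lowest in Dfd1, and GstD1 stands above the rest in every library.

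Eggshell transcripts were present in some of these libraries. A list of 13 eggshell genes summed to 3145 and 899 CPM in Dfd1 replicates 1 and 2, 264, 19.0 and 17.3 in ez731 replicates 1 to 3, 1.23 to 183 under the other labels and 3.22 to 26.1 in w1118. GstD3 and GstO1 were higher in Dfd1 replicate 1 than in replicate 2, and GstD2 and GstD5 were lower in it. In ez731 GstD2, GstD3, GstD5 and GstE3 were highest in replicate 1, whereas GstD7 and GstD10 were highest in replicate 3. The 12 heat shock genes summed to 927 and 557 CPM in Dfd1 replicates 1 and 2, above the 208 to 353 in w1118 and the 190 to 400.4 under the other labels. The part of eggshell RNA or of heat shock in these changes was not tested.

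In class E 5 genes rose and 3 fell of 14 in the libraries labelled Dfd1, 8 rose and 1 fell in ez731, and 3 rose and 3 fell in psce22. These are 57.1%, 64.3% and 42.9% of the class, beside 52.5%, 28.9% and 39.6% of all genes. The members called in psch27 and SppsG8810 belonged to classes D, T, S, O and Z. GstE7 was at 20.6, 21.4 and 20.6 CPM in w1118, 35.7 and 41.9 in Dfd1 and 51.2, 47.6 and 49.4 in ez731. No libraries overlapped, and the log2 changes were 0.74 ± 0.14 (adjusted p = 0.001) and 1.30 ± 0.13 (adjusted p = 3.3e-05). GstE8, its neighbour, was at 10.3, 10.3 and 9.55 CPM in w1118, 15.3 and 15.7 in Dfd1 and 18.8, 17.3 and 19.3 in ez731, with log2 changes of 0.47 ± 0.16 (adjusted p = 0.027) and 0.93 ± 0.15 (adjusted p = 0.00066). The Dfd1 call of GstE8 was lost in 4 of the 5 fits without a library (adjusted p 0.050 to 0.099). GstE3 was at 41.1, 46.5 and 44.0 CPM in w1118, 159 and 239.9 in Dfd1 and 168, 91.5 and 102 in ez731, and its log2 changes were 2.03 ± 0.39 (adjusted p = 0.0011) and 1.503 ± 0.36 (adjusted p = 0.0088). GstE1, the member that changed most in nej, was at 41.1, 39.0 and 41.8 CPM in w1118, 48.4 and 65.4 in Dfd1, 71.3, 60.3 and 63.4 in ez731, 65.3 and 65.0 in psce22, 58.8, 25.7 and 30.8 in psch27 and 29.5, 20.7 and 19.1 in SppsG8810. It lay above the controls under the first 3 labels and below them in SppsG8810. Only ez731 passed, with 0.73 ± 0.25 (adjusted p = 0.044), and that call was lost in each of the 6 fits that left out a library (adjusted p 0.079 to 0.12).

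GstE13 fell in Dfd1, ez731 and psce22. It was at 38.1, 40.8 and 38.3 CPM in w1118, 26.5 and 22.1 in Dfd1, 16.6, 16.2 and 16.2 in ez731 and 33.9 and 33.4 in psce22. Each of these libraries was below the controls, with log2 changes of -0.85 ± 0.08 (adjusted p = 4.2e-06), -1.20 ± 0.07 (adjusted p = 6.5e-07) and -0.26 ± 0.07 (adjusted p = 0.016). The psce22 call was lost in 3 of 5 fits without a library (adjusted p 0.055 to 0.13). GstE14, the ecdysone synthesis gene, was low, with 28, 29 and 32 reads in the w1118 libraries and 6 and 1 in those labelled psce22. Its levels were 1.40, 1.33 and 1.61 CPM in w1118, 0.295 and 0.0477 in psce22 and 0.437 to 1.12 under the other labels, and its log2 change in psce22 was -3.09 ± 0.53 (adjusted p = 0.0022). GstE10 was at 23.1, 22.4 and 19.2 CPM in w1118, 9.34 and 7.90 in Dfd1 and 11.9 and 8.50 in psce22, with log2 changes of -1.49 ± 0.37 (adjusted p = 0.0057) and -1.13 ± 0.37 (adjusted p = 0.03). The psce22 call was lost in 4 of 5 fits without a library (adjusted p 0.063 to 0.21). Of the remaining epsilon genes, GstE5, GstE6, GstE9 and GstE12 rose in ez731 by 0.38 (GstE12) to 1.14 (GstE5), GstE6 and GstE11 rose in both Dfd1 and psce22 by 0.41 to 0.63, GstE2 rose in psce22 by 0.38, and GstE4 fell by 0.94 in Dfd1. Leaving out a library ended the psce22 call of GstE2 in 4 of 5 fits (adjusted p 0.057 to 0.21) and the Dfd1 call of GstE6 in 2 of 5 (adjusted p 0.061 and 0.12).

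The zeta genes went down. GstZ1 and GstZ2 each fell under 4 of the 5 labels, as did 1.98% of all genes. GstZ1 was at 7.13, 7.61 and 7.89 CPM in w1118, 5.54 and 5.64 in Dfd1, 1.73, 1.31 and 1.58 in ez731, 5.20 and 6.35 in psce22, 5.63, 4.15 and 4.03 in psch27 and 6.71, 6.05 and 5.73 in SppsG8810. All mutant libraries lay below the controls, and those labelled ez731 lay far below the others. The log2 change was -2.24 ± 0.15 (adjusted p = 1.9e-06) in ez731 and -0.70 to -0.43 in Dfd1, psce22 and psch27. The psce22 call (adjusted p = 0.044) was lost in 5 of the 7 alternatives other than leaving out a library (adjusted p 0.054 to 0.092). GstZ2 was at 49.5, 46.1 and 44.6 CPM in w1118, 13.4 and 10.2 in Dfd1, 30.8, 40.0 and 43.1 in ez731, 30.4 and 28.9 in psce22, 34.4, 31.0 and 28.6 in psch27 and 25.2, 29.0 and 29.0 in SppsG8810. Here the Dfd1 libraries were the lowest, and no mutant library reached the controls. The log2 change was -2.15 ± 0.16 (adjusted p = 1.4e-06) in Dfd1, -0.75 to -0.57 in psce22, psch27 and SppsG8810 (adjusted p 0.0039 to 0.023), and -0.24 ± 0.13 (adjusted p = 0.19) in ez731. Without psce22 replicate 2 the psce22 call of GstZ2 was lost (adjusted p = 0.067), and the psch27 call was lost in 3 of 6 fits without a library (adjusted p 0.069 to 0.096). The neighbours thus differed in which label was lowest, GstZ1 in ez731 and GstZ2 in Dfd1.

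**Figure D5:**
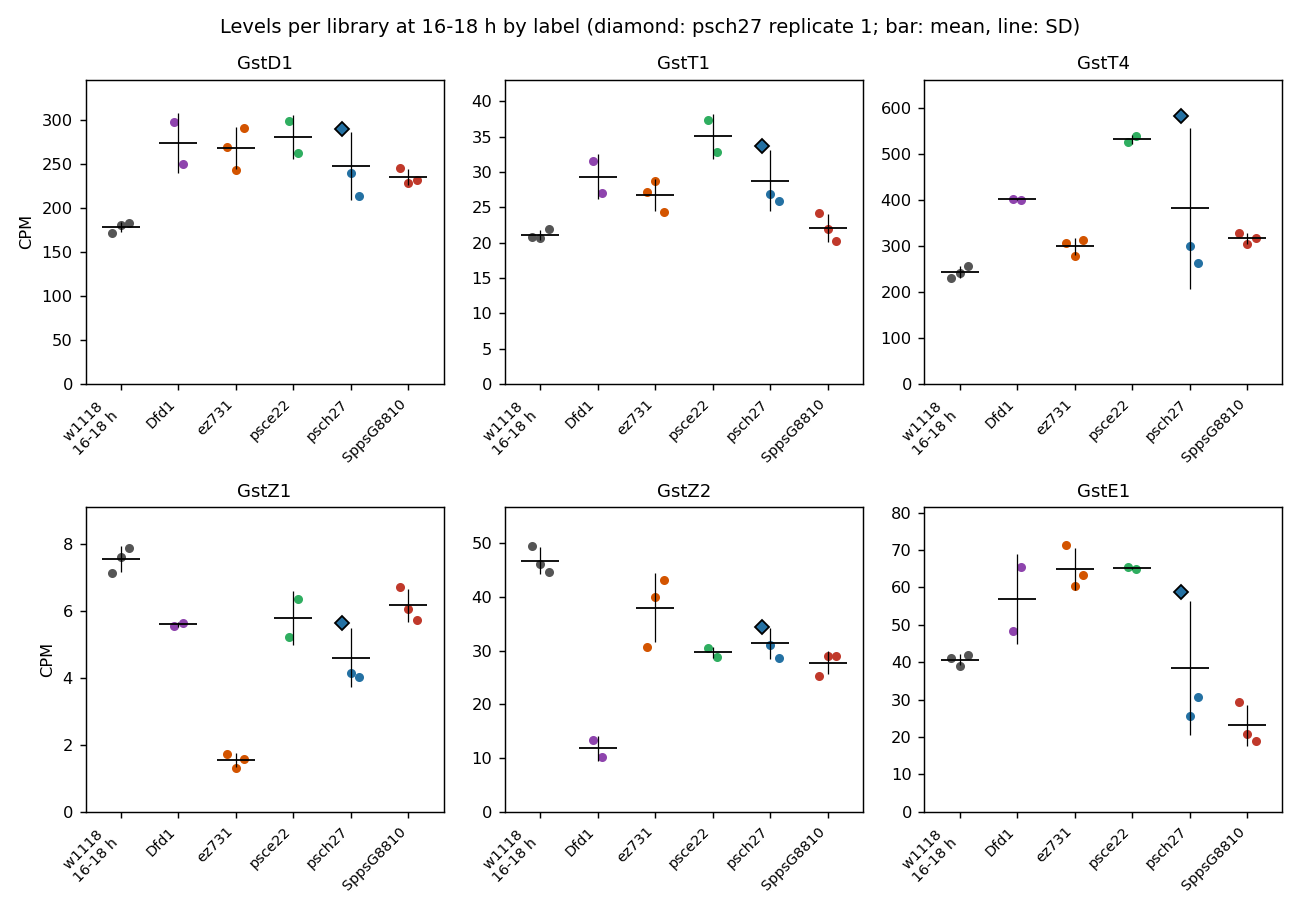
CPM of 6 members in each library at 16 to 18 h by label, with a bar for the mean, a line for the SD and a diamond for the library labelled psch27 replicate 1. GstD1 is above w1118 in all 13 mutant libraries, GstZ1 drops to 1.54 in ez731 and GstZ2 to 11.8 in Dfd1, and for GstT4 and GstE1 the diamond lies with the libraries labelled psce22.

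Among the other classes, GstT4 was at 230.2, 241 and 257 CPM in w1118, 403 and 400.2 in Dfd1, 306, 279 and 314 in ez731, 525 and 538 in psce22, 582, 301 and 262 in psch27 and 328, 304 and 318 in SppsG8810. It was above the controls in all 13 libraries and passed the test in psce22 alone, with 1.08 ± 0.23 (adjusted p = 0.0049). All groups of this age shared the dispersion, which took in the wide spread of the psch27 libraries. A missing call of GstT4 under the other labels therefore does not show a lack of change. GstT3 was at 19.1, 18.6 and 18.5 CPM in w1118, 37.6 and 30.0 in Dfd1 and 23.0, 24.6 and 23.6 in ez731. It rose without overlap in both labels, with log2 changes of 0.69 ± 0.11 (adjusted p = 0.00031) and 0.40 ± 0.10 (adjusted p = 0.012). GstT2 rose by 0.36 in Dfd1 (adjusted p = 0.037), a call lost in 4 of 5 fits without a library (adjusted p 0.064 to 0.12). GstT3 and GstT4 are on the X chromosome, whose genes had median log2 changes of 0.014 to 0.077 under the 5 labels. The male RNA roX1 was at 840 ± 31.8 CPM in w1118 and at 200 to 503 in the other libraries, and the part of the mix of sexes in these changes was not tested.

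GstO1 rose in the libraries labelled Dfd1, from 0.299, 0.275 and 0.201 CPM in w1118 to 6.37 and 2.47, with a log2 change of 3.90 ± 0.64 (adjusted p = 0.00029). No w1118 library held more than 6 reads of it, and the Dfd1 libraries held 139 and 46. GstO3 was at 39.9, 37.1 and 39.1 CPM in w1118, 58.2, 47.1 and 46.9 in ez731 and 56.6, 50.0 and 56.4 in SppsG8810, and it rose by 0.44 ± 0.11 (adjusted p = 0.0098) and 0.49 ± 0.11 (adjusted p = 0.015) on the log2 scale. GstS1 was at 236, 241 and 234 CPM in w1118, 224, 329 and 304 in psch27 and 330.1, 329 and 334 in SppsG8810. The SppsG8810 libraries were well above the controls, with 0.48 ± 0.11 (adjusted p = 0.019), and so were psch27 replicates 2 and 3 but not replicate 1. GstO2 rose by 0.26 in Dfd1 (adjusted p = 0.03) and 0.30 in SppsG8810 (adjusted p = 0.038), and both calls were lost in most fits without a library (adjusted p 0.050 to 0.23). Without a library, the SppsG8810 calls of GstO3 and GstS1 were lost in 4 and 5 of 6 fits (adjusted p 0.052 to 0.071).

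The doubt about the library labelled psch27 replicate 1 bears on many members. For GstT4, GstD5, GstD9, GstE1 and GstE10 it lay with the psce22 libraries and apart from replicates 2 and 3. GstD5 was at 1.02, 12.4 and 23.1 CPM in psch27 replicates 1 to 3 and at 0.736 and 0.764 in psce22, and GstE10 was at 9.37, 29.3 and 26.9 and 11.9 and 8.50. GstD9 was at 18.6, 4.86 and 5.22 CPM in psch27 and 14.7 and 12.8 in psce22. With that library set with psce22 in the same fit, 11 members rose and 10 fell in psce22, where 53.3% of all genes changed, and 8 rose and 5 fell in psch27, where 14.0% did. The second of these was an alternative chosen after seeing the data. In that fit GstT4 rose by 1.14 ± 0.07 (adjusted p = 4.9e-09) in psce22 and by 0.24 ± 0.07 (adjusted p = 0.036) in psch27, and GstD5 fell by 2.23 ± 0.41 (adjusted p = 0.00065) in psce22 and rose by 2.23 ± 0.34 (adjusted p = 0.00086) in psch27. GstZ1 and GstZ2 fell in both. The other labels were also read from that fit, after seeing the data. There 61.7% of all genes changed in Dfd1, 42.3% in ez731 and 18.2% in SppsG8810, against 52.5%, 28.9% and 8.86% as labelled. A missing call under these labels therefore does not show that a member was unchanged.

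Other genes of glutathione and of the defence against oxidants were read from the same fits, from a list of 27 genes of which 22 were tested. In nej3 4 rose and 2 fell and in nejEP1179 4 and 1, where 24.0% and 24.9% of all genes changed. In ez731 8 rose and 3 fell (28.9% of all genes), in Dfd1 3 and 6 (52.5%), in psce22 4 and 8 (39.6%), in SppsG8810 2 and 1 (8.86%), and in psch27 4 and 2 (7.49%). gfzf, a zinc finger protein that carries a glutathione transferase domain, rose in all 7 comparisons, by 1.68 ± 0.05 (adjusted p = 1.5e-12) in nej3, 1.54 ± 0.05 (adjusted p = 5.9e-12) in nejEP1179 and 0.34 to 0.63 at 16 to 18 h. The peroxiredoxin genes Prx2540-1 and Prx2540-2 rose in both nej alleles, by 2.79 ± 0.32 and 2.21 ± 0.23 in nej3 and by 2.07 ± 0.31 and 2.69 ± 0.24 in nejEP1179. At 16 to 18 h both also rose in ez731 (1.35 and 1.70), psce22 (1.94 and 2.17) and psch27 (2.01 and 1.58). Neither was called in Dfd1, and in SppsG8810 only Prx2540-1 rose (0.77). They are near copies of each other, so the split of reads between them is uncertain. Gclm, the modifier subunit of the enzyme that begins glutathione synthesis, rose by 0.43 in nej3 (adjusted p = 0.00041) and fell by 0.40 in psce22 (adjusted p = 0.0097). Gclc, its catalytic partner, rose by 0.89 in ez731 (adjusted p = 0.00014). Prx6005, another peroxiredoxin gene, fell by 1.49 in ez731 (adjusted p = 9.6e-06) and was not called in the other comparisons. Grx1 fell by 0.53 in Dfd1 (adjusted p = 0.0007), 0.47 in psce22 (adjusted p = 0.0046) and 0.27 in ez731 (adjusted p = 0.034). The microsomal transferase Mgstl rose by 1.60 in Dfd1, 1.20 in ez731, 0.71 in psce22 and 0.75 in nejEP1179. Sod2, the mitochondrial superoxide dismutase, fell under 4 of the labels at 16 to 18 h, by 0.22 in ez731 to 0.57 in psce22. cnc and Keap1, a pair that regulates many glutathione transferase genes in flies, did not pass edgeR's test in the 8 comparisons. Their log2 changes were -0.16 to 0.08 for cnc and -0.21 to 0.37 for Keap1 (adjusted p 0.13 to 0.99). maf-S, the partner of cnc, rose by 0.24 in psch27 (adjusted p = 0.02).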

How the data were processed

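Poly(A) RNA of pooled embryos had been sequenced. For each age the authors deposited gene counts, whole reads and not normalized, over 17558 genes in 12 libraries and 17753 genes in 16. These were made, per the labels, with featureCounts on dm6. Their methods name snakePipes, STAR and Ensembl release 96. Versions, the strand setting and the treatment of reads that fit several genes are not given in the sources used here. The authors also deposited DESeq2 tables, which hold a signal per gene, the mean over libraries of counts that the authors had divided by size factors. It was used only to see which columns had entered each table, and their fold changes and p-values were not used.

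Counts were fitted per age with edgeR 4.0.16 in R 4.3.3 (filterByExpr with a minimum count of 10, TMM scaling, glmQLFit and glmQLFTest), all groups of an age sharing the dispersion, with Benjamini-Hochberg adjustment over all genes tested (threshold 0.05). The fits were tested on simulated data. Levels are counts per 1000000 (CPM), also per kilobase of exon from the Ensembl 115 annotation, in which all 35 symbols matched. DESeq2 1.42.0, limma 3.58.1, Python 3.11.15, pandas 2.3.3 and matplotlib 3.10.9 were used as well. Alternatives were RLE size factors, no filter, DESeq2, a replicate block, only the groups compared, leaving out each library, and setting psch27 replicate 1 with psce22. Total counts in place of TMM, and the effect of moving psch27 replicate 1 on the other labels, were added after seeing the data. TMM factors were 1.094 to 1.123 in Dfd1 and 0.9373 to 1.026 elsewhere. With total counts the median of all genes in Dfd1 was 0.176.

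No replicate pair among 32 was a copy of another (chi-square per degree of freedom 2.94 to 139). Replicate numbers did not pair the libraries. The members and gene lists were chosen with earlier results of these data known. Values in every library were to be given for members called with the same sign in both nej alleles or in at least 4 of the 5 labels at 16 to 18 h, and for up to 3 members up and 3 down of smallest adjusted p per comparison with w1118. GstD2, GstD4 to GstD9, GstE3, GstE10 and GstE1 at 16 to 18 h, and GstE10 at 14 to 16 h, were singled out after their values were seen. With 1 to 5 reads a library in w1118, GstD4 and GstD6 can show only large differences.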

Additional observations from a re-analysis of the deposited data

Results flagged for a closer look

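In 6 of 90 sets of 4 libraries of a group, 1 library lay far from the other 3 by Dixon's test (chance gives about 1 in 20), all at 14 to 16 h. In w1118 replicate 4 was the highest for GstD3 at 8.956 CPM (the others 6.648 to 6.788), for GstD9 at 3.526 (2.535 to 2.655), for GstE13 at 25.8 (22.12 to 22.69) and for GstO2 at 52.22 (45.77 to 46.86). GstS1 was highest in w1118 replicate 1 at 146.9 (141.8 to 142.6), and GstD2 was lowest in nejEP1179 replicate 4 at 1.752 (1.952 to 1.982).

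The nej alleles differed by edgeR's quasi-likelihood test for 9 members, all higher in nej3. On the log2 scale nej3 exceeded nejEP1179 by 0.2813 for GstD1 (adjusted p = 0.00033), 0.7494 for GstD10 (0.0079), 0.3911 for GstE1 (0.0029), 0.4018 for GstE3 (0.0055), 0.6018 for GstE5 (0.012), 0.4963 for GstE7 (0.0044), 0.688 for GstE9 (0.04) and 0.6585 for GstE10 (0.0029). For GstE6 the difference was 0.1997 (adjusted p = 0.037) and the libraries of the alleles overlapped.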

How the results depend on the processing

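Of 113 calls of members over the 8 comparisons, 72 held in every alternative, 94 held in every alternative other than leaving out a library, and 0 reversed direction. In psce22 23 members passed with only the groups compared in the fit, against 15. In psch27 8 passed with DESeq2, 0 with only the groups compared (edgeR, with 11 at an unadjusted p under 0.05) and 13 with psch27 replicate 1 moved to psce22, against 5. In SppsG8810 13 passed with only the groups compared and 11 with that library moved, against 7. In psch27 with DESeq2 the share of all genes called was lower, at 6.44% against 7.49%. In the other cases that share moved in the same direction as the members. With only the groups compared it was 53.6% in psce22 (39.6% in the main fit), 0.57% in psch27 (7.49%) and 26.3% in SppsG8810 (8.86%). With that library moved it was 14.0% in psch27 and 18.2% in SppsG8810. Leaving out 1 library gave 15 to 18 members in nej3, 10 to 14 in nejEP1179, 7 to 9 between the alleles, 18 to 19 in ez731, 19 to 20 in Dfd1, 6 to 13 in psce22, 1 to 2 in SppsG8810 and 1 to 11 in psch27. Where an arm was left with 1 library, it was assumed to vary like the other groups. The causes were not tested.

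With the replicate number as a block (replicate block), 17 members passed in nej3, 12 in nejEP1179, 8 between the alleles, 21 in ez731, 23 in Dfd1, 12 in psce22, 6 in SppsG8810 and 5 in psch27. Same-numbered libraries deviated together with correlations of -0.419 to 0.386, and in none of the comparisons were all pairs above 0.1. GstE4 in nej3, GstE6 and GstE9 between the alleles, GstT3 in nejEP1179, GstD9 and GstT1 in Dfd1, GstE2, GstE10 and GstZ1 in psce22, and GstD8 and GstO2 in SppsG8810 lost their calls under the block. Few reads limited GstD4, GstD6, GstD7, GstE14 and GstO1, which were not tested at 14 to 16 h.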
